A study of Mus musculus with 3 samples.

Results

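Interferon-stimulated genes are the genes that cells switch on when they sense interferon. A list of 35 of them was followed through cultured mouse sensory ganglion cells. They were found by gene symbol in the annotation of the array's probe sets, the brightest probe set standing for a gene where it had several. Of the 35 genes, 34 were measured, out of 30743 genes in all, and Ifi44 was not analysed here because no probe set carried its name alone. Ddx58 is listed under its older symbol; its protein is RIG-I.

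Dorsal root ganglion neurons were taken from male ICR mice, an outbred strain, aged 8 to 10 weeks, and kept in culture for 72 hours in 1 of 3 media. The first medium held DMEM, the B27 supplement, 1 µg/ml recombinant SEMA3E (semaphorin 3E, a secreted guidance protein) and 1 µg/ml of an IgG that blocks SEMA3E. Another held DMEM, B27 and 1 µg/ml recombinant SEMA3E. The control medium held DMEM and B27 alone. Each medium has 1 array. Nothing below could therefore be tested or given an error from replicates, and how precise a value is depends on so few arrays. The 3 comparisons share arrays, so they are not independent of each other. No array analysed here held the IgG without SEMA3E, and the number of mice behind each array is not given in the sources used here.

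Type I interferon binds a receptor made of IFNAR1 and IFNAR2, which activates the kinases JAK1 and TYK2. These phosphorylate STAT2, which joins IRF9 in a complex that binds the interferon-stimulated response element (ISRE) near the start of target genes. The products of those genes sense viral RNA or DNA, block viral entry, translation and replication, or adjust the pathway itself. In sensory ganglia both neurons and the surrounding glia, fibroblasts and immune cells can respond to interferon.

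The ISRE is the sequence feature the members are known for, so the members' promoters were searched for its core, GAAA followed by any 2 bases and a further GAAA, on both strands. RefSeq promoters of build GRCm38.p6, covering 250 bases before to 50 bases after each annotated start, were matched by symbol for 26 of the 35 genes. The core was found in 13 of the 26 (50%), against 1079 of the 27025 genes with a promoter (3.99%). Among members whose array value was not the same in all 3 media, 5 of 7 promoters held it, and among members with an identical value 8 of 18 did. These 7 include Ifit1, which held the core but lay below the floor described later, and lack Ifi27, for which no promoter was matched. The 18 also include members below the floor, such as Irf1, Irf7 and Oas3. A link between the core and the array values was not tested. The windows of 30 bases below, 5′ to 3′ on the strand of the gene, are shown because these genes carry the differences described later, with Isg15 and Oas1a as members whose values were identical. Capitals mark the core, or its reverse complement, and matches within a window can overlap.
Ifitm3, chr7:141010723-141010752, minus strand: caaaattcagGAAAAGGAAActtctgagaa
Ifitm3, chr7:141010706-141010735, minus strand: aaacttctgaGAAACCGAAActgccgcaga
Ifitm2, chr7:140955988-140956017, minus strand: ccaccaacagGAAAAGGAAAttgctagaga
Stat2, chr10:128270266-128270295, plus strand: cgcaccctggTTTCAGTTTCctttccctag
Rsad2, chr12:26456553-26456582, minus strand: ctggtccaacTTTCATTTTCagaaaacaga
Ifit1, chr19:34640794-34640823, plus strand: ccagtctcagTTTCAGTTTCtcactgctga
Isg15, chr4:156200871-156200900, minus strand: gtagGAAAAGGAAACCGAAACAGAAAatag
Oas1a, chr5:120907523-120907552, minus strand: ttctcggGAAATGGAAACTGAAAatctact

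Ifitm3 and its paralogue Ifitm2 share the 10 bases GAAAAGGAAA in that window, and Ifitm3 holds a further match. In Ifitm3 the matches begin 2 and 19 bases after the start base, in Ifitm2 the match begins 46 bases before it. The promoters of Cmpk2, Ifit2, Irf1, Irf7, Irf9 and Xaf1 were among those with no match in this window. These matches describe letters in the reference sequence, not binding in the cultures.

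**Figure D1:**
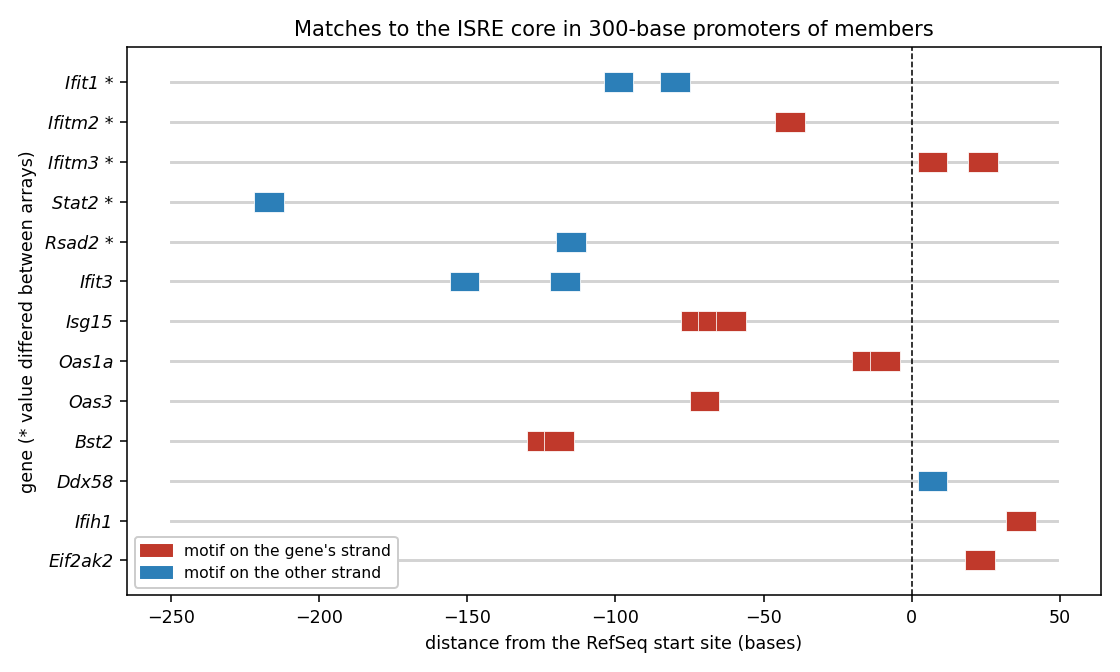
Matches to the ISRE core in the promoters of the 13 members that held it, by distance in bases from the RefSeq start site (dashed line). Grey lines span the 300 bases searched, red boxes are matches on the strand of the gene, blue boxes matches on the other strand, and genes with an asterisk had a value that differed between arrays. Most matches lie before the start site, while those of Ifitm3, Ddx58, Ifih1 and Eif2ak2 lie after it.

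Values are intensities in array units, and differences are of log2(value + 1), the medium named first minus the other. The array of cells given SEMA3E with the blocking IgG is called the IgG array. A floor of 43.7 units marks the level that 95% of 492 vomeronasal receptor genes, taken as silent in sensory ganglia, do not exceed on average. Of the 34 measured members 24 lay at or above the floor, as did 17955 of all 30743 genes. The 10 below it were Ifit1, Ifitm1, Irf1, Irf7, Mx1, Oas2, Oas3, Oasl1, Usp18 and Dhx58, with values between 17.8 and 42.8 units. Among these are Irf7, the factor that amplifies the response, and the antiviral GTPase gene Mx1, both known to be strongly inducible.

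Most interferon-stimulated genes had exactly the same deposited value in all 3 arrays. This was so for 17 of the 24 members above the floor, with values between 44.6 and 544 units, and for 9 of the 10 below it. Over all genes above the floor 74.6% were identical in the 3 arrays. What in the authors' processing gives exactly equal values is not stated in the sources used here, so they are described as deposited and not as equal RNA. The 7 members with unequal values make up 29.2% of the 24, against 25.4% of all genes. Unequal values were commoner among bright genes: 49.9% of genes with a mean log2 value of at least 11 had them, including both members there, Ifitm2 and Ifi27, against 16.6% of genes between the floor and 7, where 2 of 11 members did.

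Of the 4 signalling factors, Stat2 and Irf9 lay above the floor. Stat2, which encodes the partner of IRF9 in that complex, read 356 units with SEMA3E and IgG and 356 with SEMA3E, against 388 in control medium. Both SEMA3E media gave the same value, 91.8% of control, a log2 difference of −0.12. Differences at least that large were present in 5.31% of genes between the IgG array and control, and in 4.52% between SEMA3E and control. Irf9, the DNA-binding partner of STAT2, stayed at 99.2 units in every array. Irf1, which responds to interferon gamma as well, read 40.8 units in every array, and its other probe set 23.3.

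No sensor and no regulator among the members differed between any arrays. Of the 8 sensors 5 lay above the floor, as did 5 of the 6 regulators. Over all genes above the floor 74.6% were identical as well. The RNA helicase genes Ddx58 (RIG-I) and Ifih1 (MDA5) read 284 and 78.7 units in all 3, and Dhx58, which encodes their relative LGP2, 37.8 units. Eif2ak2, the gene of the kinase PKR that halts translation on double-stranded RNA, read 176 units. Zbp1, a sensor of Z-form nucleic acid, read 45.6 units, close to the floor.
The 2′-5′ oligoadenylate synthetases, which activate RNase L, were likewise identical: Oas1a read 92.7 units, and Oas2 and Oas3 lay below the floor. The ubiquitin-like modifier Isg15 read 68.5 units and Usp18, the gene of the protease that removes ISG15 and restrains the interferon receptor, 32.4 units. Trim25, a ubiquitin ligase gene of the RIG-I pathway, read 269 units. The ADP-ribosyltransferase family genes Parp9 and Parp14 read 53.5 and 225 units, and Ifi35, the gene of a leucine zipper protein, 544 units.

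Among the effectors 6 of 12 genes above the floor had unequal values, against 25.4% of all genes. Of the 6, Ifitm2 and Ifi27 are the 2 brightest members, in the range where 49.9% of all genes were unequal. Ifitm3 was the member furthest apart. Ifitm3 encodes a membrane protein that stops viruses from fusing with the endosome. Its probe set, TC0700004515.mm.1, read 650 units with SEMA3E and IgG and 770 with SEMA3E, against 964 in control medium. The IgG array was the lowest and the control array the highest, with SEMA3E alone between them.
The Ifitm3 value with SEMA3E and IgG was 67.5% of control, a log2 difference of −0.57. Counting Ifitm3 itself, 39 of 17955 genes (0.217%) lay at least that far apart in either direction in the same comparison. With SEMA3E alone it was 79.9% of control (−0.32), which 0.78% of genes reached, and with IgG it was 84.4% of SEMA3E alone (−0.24), which 1.74% reached. Ifitm3 thus lay further from control with the IgG present than without it.

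Ifitm2 (TC0700004513.mm.1), its close paralogue with related antiviral activity, read 4325 units with SEMA3E and IgG and 4890 with SEMA3E, against 4890 in control medium. Only the IgG array stood apart, at 88.4% of the other 2 (−0.18), a size reached by 3.33% of genes against control and 3.56% against SEMA3E alone. The paralogue therefore shared the lower value in the IgG array but not the difference between SEMA3E and control. Ifitm1 lay below the floor at 39.9 units in all 3 arrays. Ifitm7 read the same in all 3 as well, and Ifitm5 and Ifitm6 lay below the floor. Ifitm genes are similar in sequence, so a probe set named for one may also read another, and how far that is so was not tested.

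Cmpk2 and Rsad2 are neighbouring genes on chromosome 12. Cmpk2 (TC1200000225.mm.1), a mitochondrial nucleotide kinase gene, read 89.0 units with SEMA3E and IgG and 87.9 with SEMA3E, against 106 in control medium. Both SEMA3E media lay below control for Cmpk2, by log2 differences of −0.25 with IgG (83.9% of control) and −0.27 without it (82.9%), sizes reached by 1.57% and 1.19% of genes. The IgG array exceeded SEMA3E alone by 0.02.
Rsad2, the gene of the antiviral enzyme viperin, read 111 units with SEMA3E and IgG and 104 with SEMA3E, against 113 in control medium. The SEMA3E array was the lowest, at 92.5% of control (−0.11), a size that 5.19% of genes reached. The IgG array lay at 98.3% of control (−0.03), which 14.5% of genes reached, and 0.09 above SEMA3E alone, which 8.07% reached. Both neighbours had their lowest value with SEMA3E, and the IgG array lay nearer to SEMA3E for Cmpk2 and nearer to control for Rsad2.

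Ifi27, which encodes a small hydrophobic protein of the mitochondrial or nuclear membrane, read 14494 units with SEMA3E and IgG and 14858 with SEMA3E, against 15280 in control medium. The order of the arrays was that of Ifitm3, but the differences were small: −0.08 with IgG and −0.04 without it, each against control. Sizes at least as large were present in 8.46% and 11.7% of genes.

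The Ifit genes encode proteins that bind viral RNA lacking the host's cap marks. Ifit2 read 464 units in both SEMA3E media, against 456 in control medium, and was the single member above control (0.02), a size that 14.7% of genes reached with IgG and 14.3% without it. Ifit3 read 135 units in all 3 arrays. Ifit1, below the floor, read 40.4 units with SEMA3E and IgG and 42.8 with SEMA3E, against 42.8 in control medium, a log2 difference of −0.08 from either. The paralogues Ifit1bl1, Ifit1bl2 and Ifit3b were identical in all 3 arrays. Probe sets of Ifit and Oas paralogues may read more than 1 member, and this was not tested.

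The remaining effectors were identical in every array. Above the floor these were Xaf1, a pro-apoptotic gene, at 489 units, the exonuclease gene Isg20 at 176, Bst2, whose product tethers budding virions, at 112, Oasl2, an OAS-like gene, at 100.1 and the antiviral GTPase gene Mx2 at 44.6 units. Below it, Mx1 read 23.3 units and Oasl1, the other OAS-like gene, 39.7 units.

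**Figure D2:**
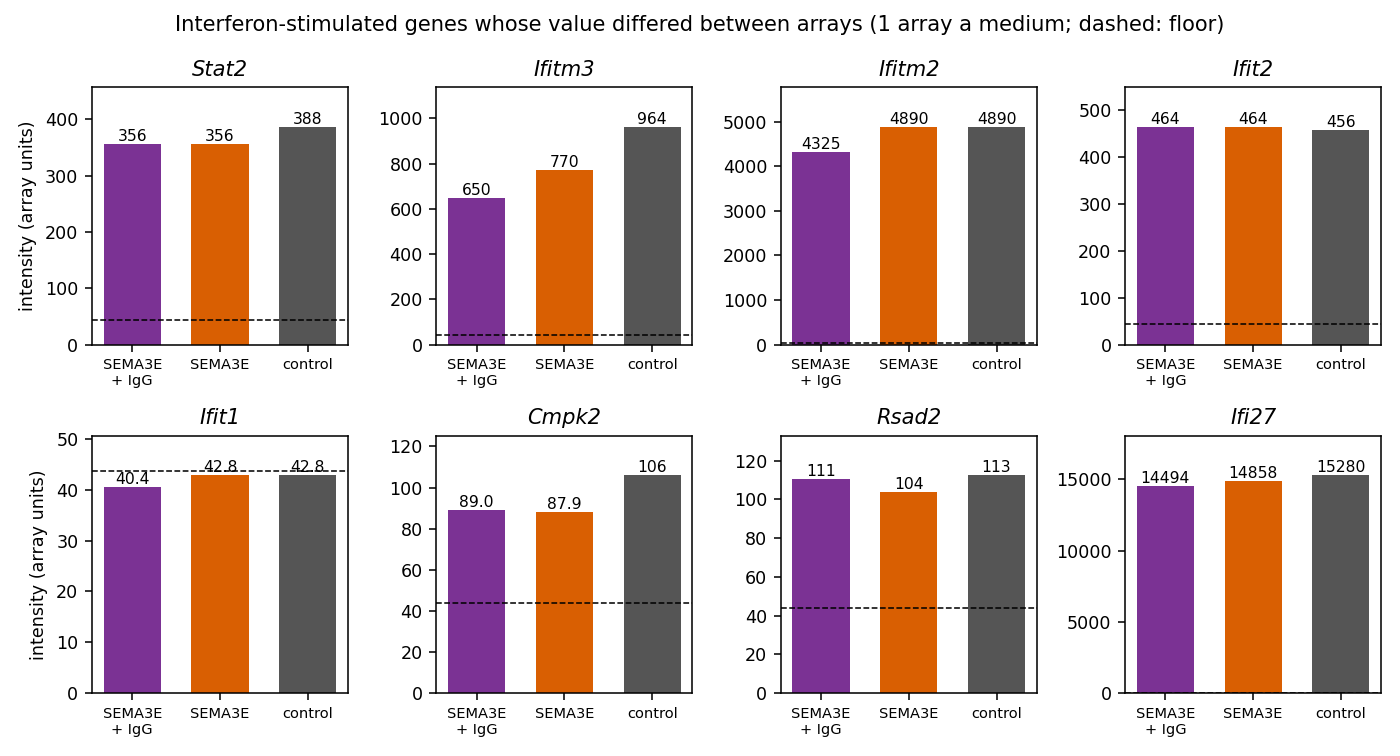
Intensity in array units of the 8 members whose value differed between arrays, with 1 bar for each array and the floor of 43.7 units as a dashed line; each panel has its own axis from 0. Ifitm3 and Ifi27 are lowest with SEMA3E and IgG and highest in control medium, Stat2 and Cmpk2 are lower in both SEMA3E media, and Ifitm2 is lower only with SEMA3E and the IgG together.

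**Figure D3:**
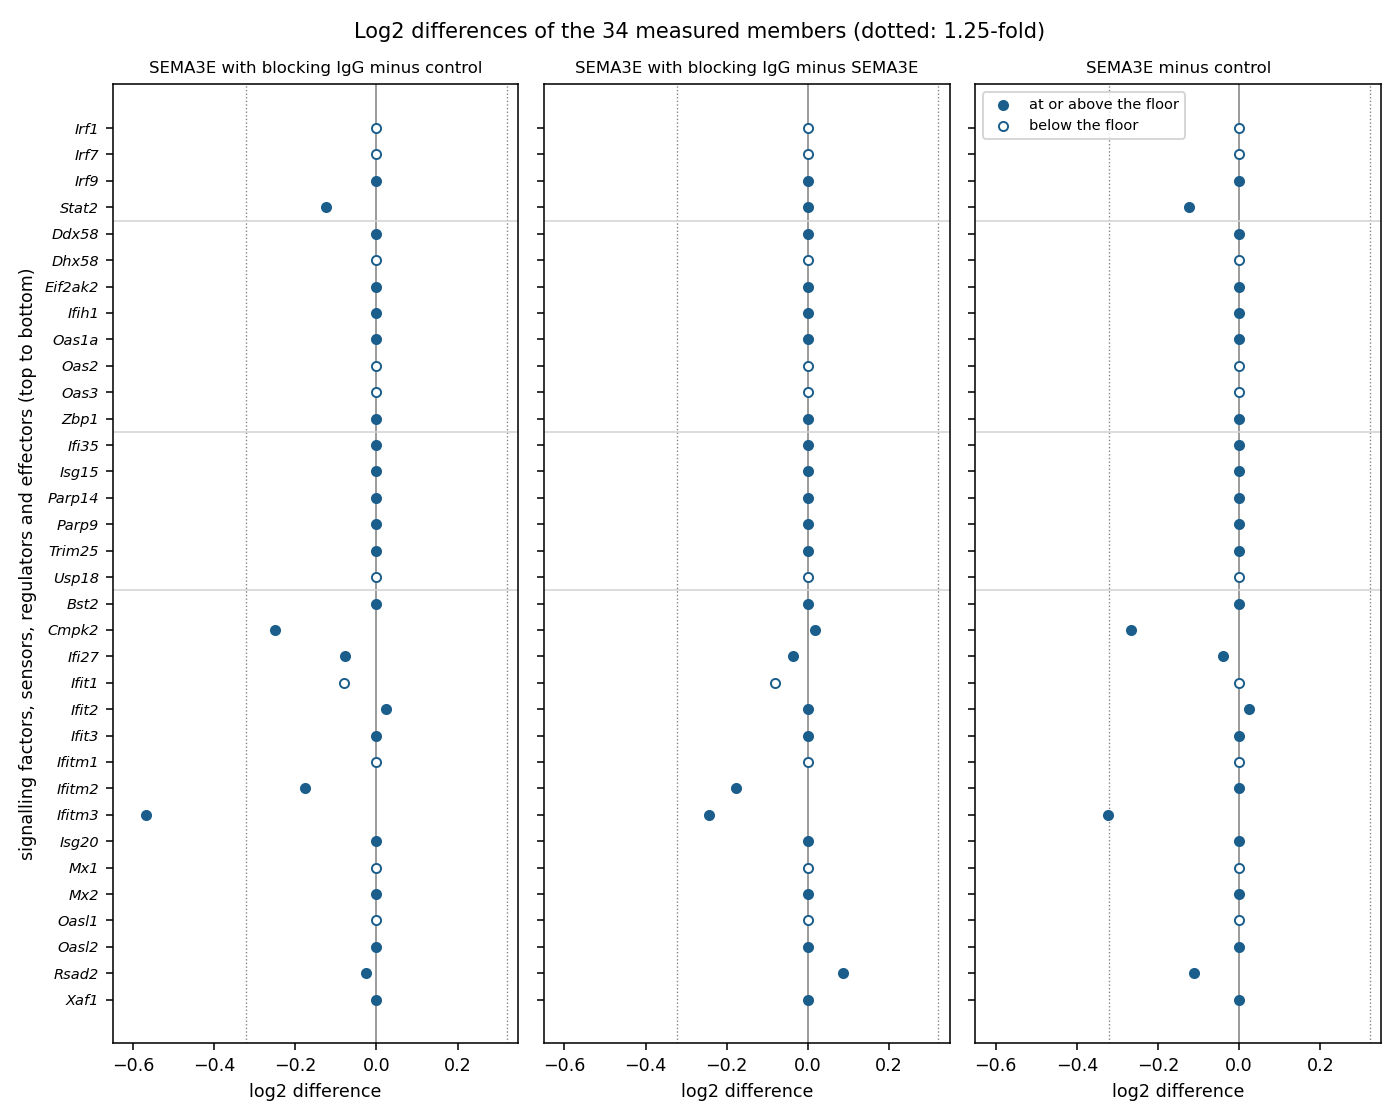
Log2 differences of the 34 measured members in the 3 comparisons, ordered from top to bottom as signalling factors, sensors, regulators and effectors; filled points lie at or above the floor, open points below it, and dotted lines mark a ratio of 5 to 4. Sensors and regulators all lie at 0, and Ifitm3 is the only member past a dotted line.

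Set against control medium, the array with SEMA3E and the IgG shows which differences were present while the antibody was there. A ratio of at least 5 to 4, a log2 difference of 0.32, was used as the threshold. Past it lay 1 of the 24 members, Ifitm3, against 0.891% of all genes in either direction and 0.551% in the lower. Unequal values were present in 7 members, against 19.2% of all genes: 6 were lower than control, against 11.6% of all genes, and Ifit2 was higher, against 7.62%. With arrays centred on their medians all 24 were unequal, 18 higher and 6 lower, and with quantile normalization 2 were higher and 22 lower. At 1.1-fold 3 members passed, against 4.64% of all genes. All 3 (Ifitm3, Cmpk2 and Ifitm2) were lower than control, as were 2.54% of all genes. At 1.5-fold 0 members passed, against 0.201%. The median of the 24 differences was 0, as was that of all genes, and their mean was −0.05 against −0.0036 over all genes.

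Set against SEMA3E alone, the same array shows what differed once the IgG was added to SEMA3E. Past the ratio of 5 to 4 lay 0 of the 24 members, against 0.869% of all genes in either direction and 0.384% in the lower. Values were unequal in 5 members, against 20.7% of all genes. Of these Rsad2 and Cmpk2 were higher with the IgG, against 10.1% of all genes, and Ifitm3, Ifitm2 and Ifi27 were lower, against 10.6%. Centring gave 21 higher and 3 lower, and quantile normalization 12 and 12. Ifitm3 and Ifitm2 passed 1.1-fold, against 5.01% of all genes in either direction and 2.34% in the lower, and 0 members passed 1.5-fold, against 0.15%. The median was 0 for members and for all genes.

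Between SEMA3E and control medium, the question is which transcripts went with exposure to SEMA3E. Ifitm3 was the 1 member past the ratio of 5 to 4, against 0.785% of all genes in either direction and 0.395% in the lower. It lay at the edge of that threshold: with an offset of 16, with arrays centred on their medians or with quantile normalization 0 members passed. Values were unequal in 6 members, against 18.7% of all genes. Of these 5 were lower (Ifitm3, Cmpk2, Stat2, Rsad2 and Ifi27), against 12.3% of all genes, and Ifit2 was higher, against 6.46%. Centring gave 19 higher and 5 lower, and quantile normalization 2 higher and 22 lower. Ifitm3 and Cmpk2 passed 1.1-fold, against 3.87% of all genes in either direction and 2.34% in the lower, and 0 members passed 1.5-fold, against 0.173%. The median was again 0 for members and for all genes.

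**Figure D4:**
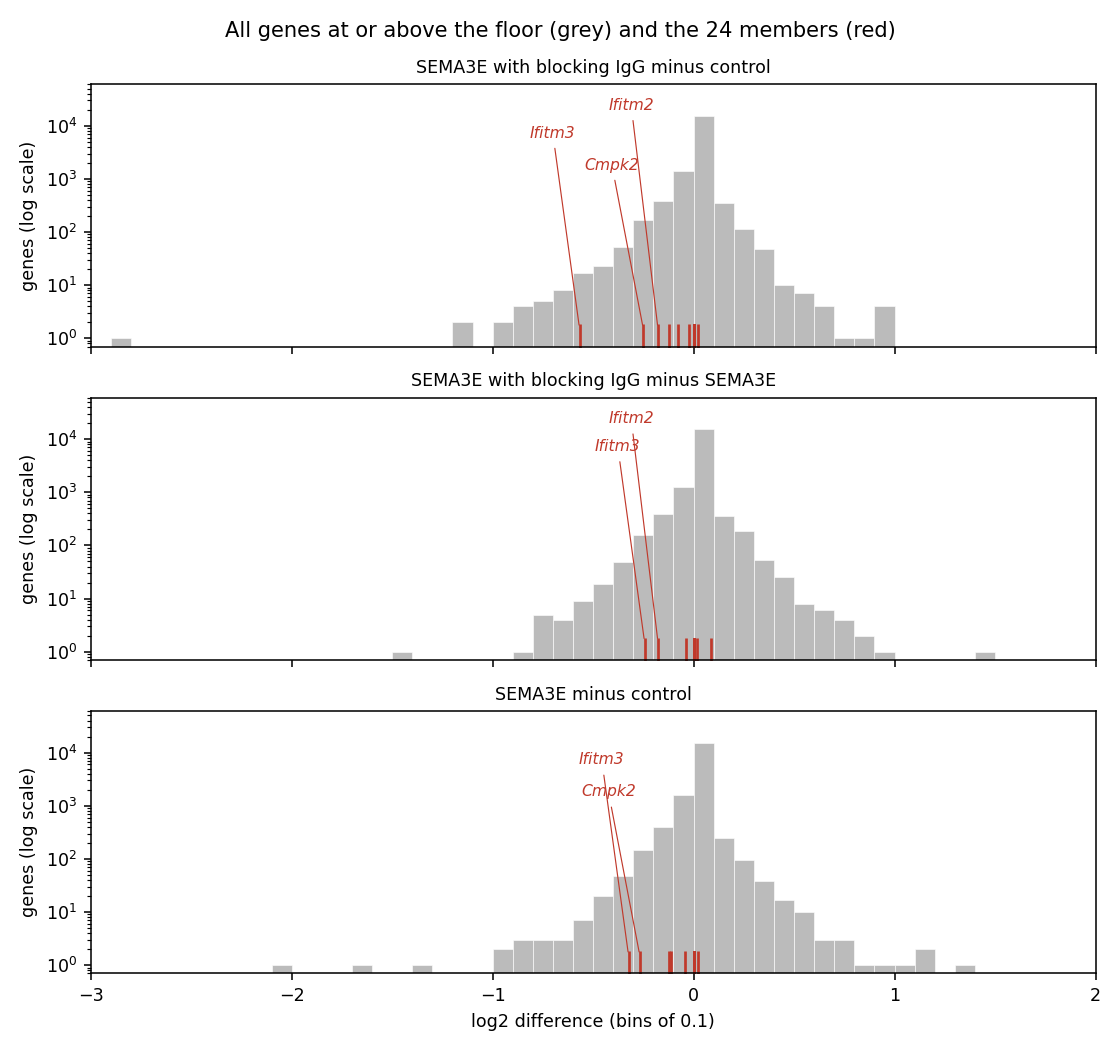
Number of genes at or above the floor (log scale) in bins of 0.1 of the log2 difference, for the 3 comparisons, with the 24 members above the floor as red ticks; identical genes fall in the bin that starts at 0. In each comparison most members sit at 0. Ifitm3 lies on the lower side in all 3, Cmpk2 in the 2 comparisons with control and Ifitm2 in the 2 that hold the IgG array.

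By which array held a value of its own, the members fell as follows. Control stood apart from 2 equal SEMA3E media in Stat2 and Ifit2 (8.33% of members, against 4.64% of all genes). The IgG array stood apart in Ifitm2 (4.17%, against 6.63%), and SEMA3E alone in 0 members, against 6.18% of all genes. All 3 arrays differed in Ifitm3, Cmpk2, Rsad2 and Ifi27 (16.7%, against 7.9%).

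Unequal values among related lists are read against the 25.4% of all genes that had them, and from 0.785% to 0.891% of all genes passed the ratio of 5 to 4. Of 19 interferon genes measured, 10 lay above the floor, as did 17955 of all 30743 genes. These 10 read between 44.8 and 67.1 units, not far above the floor of 43.7, and 2 of them had unequal values. Ifna16 read 48.0 units with SEMA3E and IgG and 54.0 with SEMA3E, against 48.0 in control medium, and Ifna4 read 55.6 and 54.5, against 54.5. Both lie near the floor and in a cluster of closely related genes, while Ifng lay below the floor.
Among 5 interferon receptor genes above the floor Ifnar2 alone had unequal values, 3256 units with SEMA3E and IgG and 3277 with SEMA3E, against 3277 in control medium (−0.0095 with IgG), and Ifnar1 was identical. Of 9 kinase and factor genes above the floor 2 had unequal values. Irf2, which can repress interferon targets, read 176 units in both SEMA3E media, against 205 in control medium (−0.22), and Irf3, the factor activated by RIG-I signalling, 306 against 314 (−0.04). Jak1, Jak2, Tyk2 and Stat3 were identical.

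Of 8 sensing genes above the floor 3 had unequal values: Tlr7, a receptor for single-stranded RNA, read 80.3 units in both SEMA3E media, against 74.4 in control medium (0.11), and Sting1, the adaptor of cytosolic DNA sensing, 80.1 against 86.1 (−0.10). Mavs, the adaptor of RIG-I, read 47.1 units with SEMA3E and IgG and 45.8 with SEMA3E, against 47.1 in control medium. All 9 negative regulators above the floor, a list that shares Isg15 and Usp18 with the members, were identical, and Socs1 and Socs3 lay below the floor.

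Of 43 other interferon-stimulated genes above the floor 6 had unequal values, against 25.4% of all genes, and 0 passed the ratio of 5 to 4 in any comparison. With SEMA3E and IgG 4 of the 43 were lower and 1 higher than control, against 11.6% and 7.62% of all genes. With SEMA3E alone 5 of the 43 were lower and 0 higher, against 12.3% and 6.46% of all genes. Ifi27l2a, a relative of Ifi27, read 73.5 units with SEMA3E and IgG and 74.5 with SEMA3E, against 88.5 in control medium. Like Cmpk2 it was lower in both SEMA3E media, by −0.27 with IgG and −0.25 without it.
Lgals9, the gene of the lectin galectin 9, read 1430 units with SEMA3E and IgG and 1498 with SEMA3E, against 1609 in control medium (−0.17 with IgG), in the order of Ifitm3. Ifi207 was 0.11 higher with IgG than in both other media, and Dtx3l, a ubiquitin ligase gene paired with Parp9, was 0.05 lower with SEMA3E than in both other media.

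**Figure D5:**
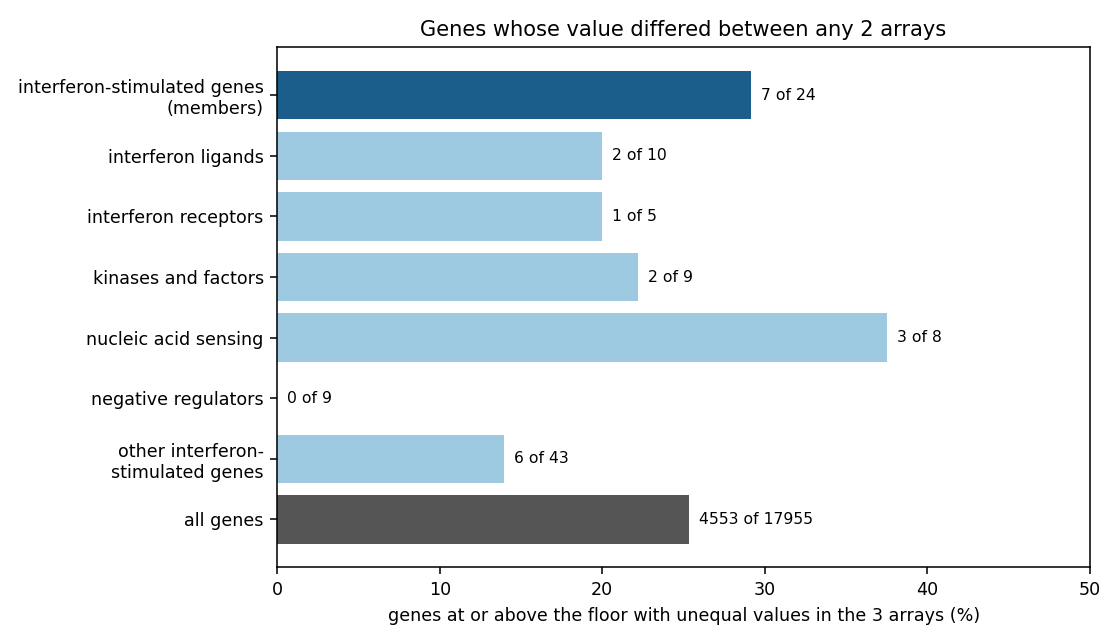
Share of genes at or above the floor whose value differed between any of the 3 arrays, in percent, for the interferon-stimulated genes, 6 lists of related genes and all genes, with counts beside each bar. The members reach 7 of 24 and all genes 4553 of 17955, while the 9 negative regulators show 0.

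The cultures held neuronal RNA together with that of other cells. All 14 sensory neuron markers measured lay above the floor, among them Nefl, Stmn2 and Tubb3, as did all 7 satellite glial and all 9 fibroblast markers, so the arrays do not read neurons alone. Of 13 macrophage markers 8 lay above the floor, with Csf1r, Itgam, C1qb, C1qc and Mrc1 below it. Of 16 markers of lymphocytes, mast cells, neutrophils and plasmacytoid dendritic cells 7 did, with Ptprc and Cd3e below it. Among those 7, Cd3g and Cd79a lay close to the floor, at 45.0 and 48.1 units. Over all genes 17955 of 30743 lay above the floor, so these counts do not show which immune cells were present. In bulk samples fewer cells of a type and less RNA per cell cannot be told apart.

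Among markers of other cells, some had the same order of arrays as Ifitm3 and some the opposite direction from control. Pmp2, a myelin protein gene of Schwann cells, read 3958 units with SEMA3E and IgG and 4744 with SEMA3E, against 5868 in control medium (−0.57 with IgG). The glial potassium channel gene Kcnj10 read 273 and 337, against 399 (−0.54), and the fibroblast proteoglycan gene Ogn 861 and 1034, against 1536 (−0.83).
Higher than control were the matrix gene Mgp of the fibroblast list, with 3796 units with SEMA3E and IgG and 3793 with SEMA3E, against 3182 in control medium (0.25 with IgG), and the mural gene Tagln, with 5679 and 5687, against 4863 (0.22). The neutrophil gene S100a8 read 364 and 388, against 292, and passed the ratio of 5 to 4 with SEMA3E alone (0.41). The other neutrophil genes of its list did not share this. S100a9 read 210 units with SEMA3E and IgG and 246 with SEMA3E, against 221 in control medium. Ly6g lay below the floor and was identical in all 3 arrays.
The summed level of a list follows its brightest probe sets, such as Pmp22 in the Schwann cell list, which read 130696 units in every array. The counts of lower and higher markers below compare the IgG array with control medium. In that comparison 11.6% of all genes above the floor were lower and 7.62% higher. Satellite glial markers summed to 9011 units with SEMA3E and IgG and 9437 with SEMA3E, against 9600 in control medium, with 3 of 7 lower and 0 higher in the IgG array than in control. Schwann cell markers summed to 145952 and 146653, against 147862, with 1 of 7 lower and 0 higher, and fibroblast markers to 16630 and 16799, against 16695, with 2 of 9 lower and 1 higher.
Macrophage markers summed to 4642 and 4728 units in the SEMA3E media, against 4471 in control medium, with 2 of 8 lower and 1 higher, endothelial and mural markers to 13789 and 13797, against 12980, with 1 of 8 lower and 1 higher, and lymphoid, mast cell and neutrophil markers to 1529 and 1584, against 1491, with 2 of 7 lower and 1 higher (this list holds Bst2, itself a member). Neuronal markers summed to 426814 and 429012, against 434977, with 7 of 14 lower and 0 higher. Several of these neuronal markers are bright, such as Nefl, Stmn2 and Snap25. They lie in the range, a mean log2 value of at least 11, where 49.9% of all genes were unequal. The part of these cell types in the differences of Ifitm3 and the other members was not tested.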

How the data were processed

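The deposited files give 1 intensity on a linear scale for each of 65956 probe sets in each of 3 arrays. Per the submitters' processing notes, the authors made these values with Affymetrix Expression Console. How the software summarised and scaled the probes, its version and the array's genome build are not stated in these sources. From these, log2(value + 1) and differences between arrays were computed. Probe sets were named by the platform annotation: 30604 carried 1 symbol, 612 carried several names of 1 gene number (Ifi27 among them), 1534 carried several genes and were not used for naming, and 33206 had none. Symbols were updated through a mouse RefSeq table (GRCm38.p6), used for names, neighbours and promoters. A gene was called at a ratio of 5 to 4, with 1.1-fold and 1.5-fold as alternatives. There are no tests, since each medium has 1 array. Values were given for each member with unequal arrays, and for up to 4 genes furthest apart in each related list. The members and lists were chosen with earlier results of these data known. Counting was tested on simulated data. Other offsets, scalings, floors and probe set choices were tried. Python 3.11.15, numpy 2.4.6, pandas 2.3.3, statsmodels 0.14.6 and matplotlib 3.10.9 were used.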

Additional observations from a re-analysis of the deposited data

How the results depend on the processing

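No paired analysis was possible because each medium has 1 array. All 20 nonzero differences of the members with unequal values kept their sign under centring, loess and quantile normalization. They did so under the offset of 16 and the mean of probe sets as well, but these could not change a sign. An offset keeps the order of the arrays, and none of these members has a further probe set. Between SEMA3E and control the count past the ratio of 5 to 4, which is 1 (Ifitm3), was 0 with the offset of 16, centring, quantile normalization or a 1.5-fold threshold. The Ifitm3 difference there ranged from −0.323 to −0.315 on the log2 scale, around a threshold of 0.322. Between the IgG array and control the count was 1 under each offset, scaling, probe set and floor alternative, and 0 at 1.5-fold. At 1.1-fold the counts were 3 (IgG against control), 2 (IgG against SEMA3E) and 2 (SEMA3E against control). Centring and quantile normalization shift every identical value, so by their construction all 24 members became unequal in each comparison. After centring, the splits of higher and lower given with each comparison follow the sign of that shift. After quantile normalization the shift varies with intensity, and between the IgG array and SEMA3E it gave 12 higher and 12 lower. The median member difference was then 0.0066 (IgG against control) and 0.0062 (SEMA3E against control) after centring, and −0.0051 (SEMA3E against control) after quantile normalization. Over all genes above the floor the same medians were 0.0066, 0.0062 and −0.0028. Without the floor 34 members were counted, and with a floor at the 99th percentile 21, with 8 and 7 unequal between the IgG array and control. Ifit1, the member below the floor with unequal values, has little signal behind its difference.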

Other observations

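Further interferon-related genes shared a probe set with another gene and could not be named singly. Over the related lists there were 17 such probe sets, and 16 of them were identical in all 3 arrays. This count includes probe sets below the floor, while over all genes above the floor 74.6% were identical. The probe sets of Gbp2b and Gbp5, of Ifi47 and Olfr56, and of Tgtp1 and Tgtp2 lay below the floor. Among these 16 were the probe set of Gbp2b and Gbp5, interferon-induced GTPases, at 33.4 units, that of Ifi47 and Olfr56 at 20.2 units, that of Ifi203 and 2 further annotations at 174 units, and both probe sets of Tgtp1 and Tgtp2 at 24.3 units. The exception was a probe set of Psme2, a proteasome activator subunit, and its copies Psme2b and Psme2b-ps. It read 3369 units with SEMA3E and IgG and 3167 with SEMA3E, against 3369 in control medium, a log2 difference of 0.09 between the IgG array and SEMA3E alone. A further probe set of Psme2 and Psme2b read 2145 units in all 3 arrays.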
